A study of Homo sapiens with 4 samples.

Results

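In A549 cells, a human lung adenocarcinoma line, 106 autosomal protein-coding genes had no read in either control library and at least 15 reads in each of 2 UHRF1 KO libraries. They were taken from 58735 rows of the count table, of which 19019 were coding genes on chromosomes 1 to 22 and 3803 of those had a count of 0 in both controls. Of the 3803, 114 met the counts, and 8 with symbols or symbol families set aside by the rule are not described here. The UHRF1 KO group held 2 libraries of cells that received a CRISPR guide against UHRF1 (sgUHRF1), and the control group held 2 libraries of cells with a non-targeting guide (sgNTC). Both groups carried the lentiCRISPRv2-hygro vector and had been selected with hygromycin. The sources used here do not give whether the cells were pools or clones, or how long after infection RNA was taken. The labels name no separate cultures within a group, so the spread between its libraries may be technical. All 4 libraries were used to choose the genes, so their own values are given as a description, with no test.

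UHRF1 reads hemimethylated CpG sites behind the replication fork and brings the maintenance methyltransferase DNMT1 to them, so that DNA methylation is copied to the new strand. Methylation of CpG-rich promoters is known to hold many germline genes silent in somatic cells, and a number of these genes are read out again in tumours as cancer-testis antigens. Genes of other lineages can be silent for a different reason, the lack of the transcription factors that drive them, and many of their promoters hold few CpG sites.

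UHRF1 itself had 811 and 1000 counts in the UHRF1 KO libraries, against 1740 and 1834 in the controls, a log2 fold change of -1.31 (SE 0.055, adjusted p = 3.92e-20, edgeR quasi-likelihood test). The transcript was thus lower in both UHRF1 KO libraries but still present. Totals were 20020366 and 23977168 counts in the UHRF1 KO libraries and 18604598 and 19222886 in the controls. The deeper UHRF1 KO sequencing bears on a rule that counts reads, and after all 4 libraries were thinned to the smallest total 93 genes met it, 92 of them among the 106. A count of 0 in both controls allows a level of up to 0.0825 CPM, the count scaled to library size. This floor is taken as 3 counts over both libraries, and fold values below divide mean CPM in UHRF1 KO by it. They allow for counting error in the controls only, since the UHRF1 KO mean is taken as measured.

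The promoters of 8 of these genes are printed here, those of the 6 with the highest CPM in UHRF1 KO and of 2 more that the results turn on. Each run is the 250 bases before the RefSeq start on GRCh38.p14, read 5' to 3' on the gene's strand, with every CpG in capitals. DPEP3, TSPYL6, NAA11, FGR, CCR4 and CLEC2L had the highest CPM, CCL22 encodes a ligand of CCR4, and MYH13 is the highest of 4 myosin genes from a single cluster. They do not span the whole set, since CpG sites in the 300-base RefSeq entries of 68 of the 106 genes ran from 0 to 48 with a median of 8.5.
DPEP3: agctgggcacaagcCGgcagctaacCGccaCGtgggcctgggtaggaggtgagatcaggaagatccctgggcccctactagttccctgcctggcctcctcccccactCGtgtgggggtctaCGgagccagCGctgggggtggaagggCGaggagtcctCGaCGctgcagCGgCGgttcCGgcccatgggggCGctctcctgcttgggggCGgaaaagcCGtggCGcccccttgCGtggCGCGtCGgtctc
TSPYL6: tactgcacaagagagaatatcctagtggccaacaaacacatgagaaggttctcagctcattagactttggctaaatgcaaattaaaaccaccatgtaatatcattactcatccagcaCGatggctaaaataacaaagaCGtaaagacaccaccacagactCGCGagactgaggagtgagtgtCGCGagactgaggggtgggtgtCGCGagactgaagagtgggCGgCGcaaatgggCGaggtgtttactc
NAA11: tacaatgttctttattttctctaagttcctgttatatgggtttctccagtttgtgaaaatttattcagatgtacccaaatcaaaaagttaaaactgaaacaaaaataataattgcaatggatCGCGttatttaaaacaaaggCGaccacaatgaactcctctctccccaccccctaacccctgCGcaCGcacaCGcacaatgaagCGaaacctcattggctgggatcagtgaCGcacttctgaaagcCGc
FGR: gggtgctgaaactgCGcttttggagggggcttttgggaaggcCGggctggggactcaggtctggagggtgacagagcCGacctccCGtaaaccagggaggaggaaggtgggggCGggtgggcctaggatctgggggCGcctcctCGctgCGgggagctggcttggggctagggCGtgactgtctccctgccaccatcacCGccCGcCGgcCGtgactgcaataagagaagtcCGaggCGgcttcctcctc
CCR4: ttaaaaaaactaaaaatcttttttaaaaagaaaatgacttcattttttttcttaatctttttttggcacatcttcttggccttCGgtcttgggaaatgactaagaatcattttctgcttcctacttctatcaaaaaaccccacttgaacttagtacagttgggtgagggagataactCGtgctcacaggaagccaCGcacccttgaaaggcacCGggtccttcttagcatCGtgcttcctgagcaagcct
CLEC2L: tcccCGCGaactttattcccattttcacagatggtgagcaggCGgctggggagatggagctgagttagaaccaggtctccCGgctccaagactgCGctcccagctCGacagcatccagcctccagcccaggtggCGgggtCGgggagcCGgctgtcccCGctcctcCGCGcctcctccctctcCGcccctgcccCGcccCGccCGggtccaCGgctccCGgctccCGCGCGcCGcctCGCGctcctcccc
MYH13: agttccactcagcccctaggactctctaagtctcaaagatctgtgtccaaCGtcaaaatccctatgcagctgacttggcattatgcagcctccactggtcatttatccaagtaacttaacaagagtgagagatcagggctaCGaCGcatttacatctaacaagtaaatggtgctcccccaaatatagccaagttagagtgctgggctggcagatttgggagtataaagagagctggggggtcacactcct
CCL22: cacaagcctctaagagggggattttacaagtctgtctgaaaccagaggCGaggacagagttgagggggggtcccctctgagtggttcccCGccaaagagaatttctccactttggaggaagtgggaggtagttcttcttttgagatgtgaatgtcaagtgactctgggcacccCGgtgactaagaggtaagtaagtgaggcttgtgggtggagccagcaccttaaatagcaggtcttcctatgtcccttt

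In these windows the DPEP3 promoter (chr16:67980500-67980749, minus strand) held 20 CpG sites, that of TSPYL6 (chr2:54256230-54256479, minus strand) 11 and that of NAA11 (chr4:79326062-79326311, minus strand) 9. CLEC2L (chr7:139523435-139523684, plus strand) had 24, FGR (chr1:27635186-27635435, minus strand) had 15, CCR4 (chr3:32951394-32951643, plus strand) had 5, and MYH13 (chr17:10373007-10373256, minus strand) and CCL22 (chr16:57358533-57358782, plus strand) had 3 each. The motifs TCGCGAGA, CACGTG and TATAAA were searched on both strands. TCGCGAGA, the core that the factor BANP binds when unmethylated, matched 3 times in the TSPYL6 window and in none of the other 7. It was present in 1.65% of 13398 autosomal coding promoters of the same length. CACGTG, an E-box, matched once in the DPEP3 window, against 8.04% of promoters. TATAAA matched once in the MYH13 window, against 8.57% of promoters. A match is a description of the letters and does not show binding.

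The 106 genes were 3.01% of the 3525 autosomal coding genes at 0 in both controls, after the same symbols were left out. Counted the other way round, 0 genes were at 0 in both UHRF1 KO libraries with 15 or more counts in each control. At a minimum of 5 counts, 273 genes were at 0 in both controls and past it in each UHRF1 KO library, against 1 gene in the opposite direction. Silence itself was less broad in UHRF1 KO, with 2536 autosomal coding genes at 0 in both UHRF1 KO libraries and 3803 at 0 in both controls. Of those, 2331 were at 0 in all 4. Most genes silent in the controls therefore stayed without a read, and 694 more had between 1 and 14 counts in the lower UHRF1 KO library and 664 had counts in 1 UHRF1 KO library alone. On the X chromosome, which the rule leaves out, 45 of 282 coding genes at 0 in both controls met the same counts, or 16%.

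All 106 passed the filter on low counts, through the UHRF1 KO libraries alone, and all 106 were called higher by edgeR, as the choice of genes fixes. Across 17030 genes tested, 32% were called higher and 30.1% lower. Scaling by total counts alone shifted the median log2 fold change of all genes by 0.11, and the calls became 6564 higher and 3761 lower, against 5445 and 5118 with TMM scaling. At the edge of the rule, just inside it, TH had 15 and 16 counts in the UHRF1 KO libraries, P2RX7 15 and 22, SLC7A4 23 and 15, CCDC152 15 and 26, and NR5A1 16 and 18. Just outside were MAEL with 14 and 24, NDN with 13 and 32, ASB2 with 13 and 30, MLC1 with 22 and 13, and SVOPL with 13 and 22. The genes on both sides of the edge thus had nearly the same counts, and MAEL, a piRNA pathway gene, missed it by 1 read.

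Levels were low. Mean CPM in UHRF1 KO ran from 0.683 to 14.04 with a median of 1.42, and 29 genes were under 1 CPM while 10 reached 5 CPM. Per length, the median was 0.419 FPKM, which is CPM divided by the gene's summed exon length in kilobases, and 27 of the 106 reached 1 FPKM. Together the genes took 4828 and 5473 counts in the UHRF1 KO libraries, or 241.2 and 228.3 CPM of the unscaled totals. The fold over the control floor ran from 8.29 to 170.3 with a median of 17.3. In a bulk library a low level can be a small number of cells with much RNA or many cells with little, and these cannot be told apart here.

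**Figure D1:**
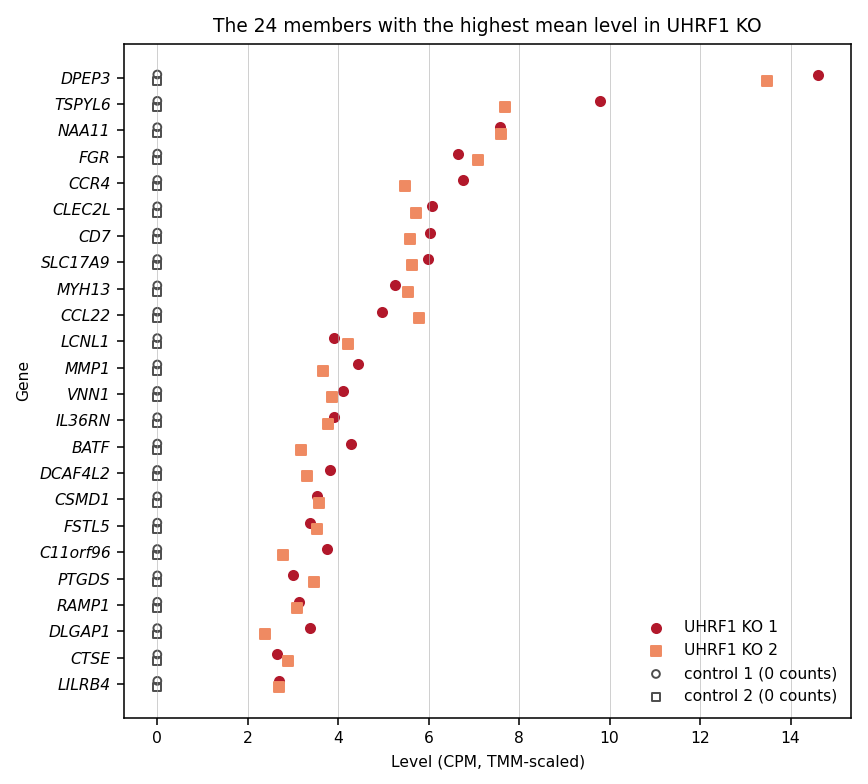
CPM (x axis, linear, TMM-scaled) of the 24 genes with the highest mean in UHRF1 KO (y axis), with filled points for each UHRF1 KO library and open points for each control library. DPEP3 stands at 14.04 CPM on average and the other 23 lie between 2.70 and 8.74 CPM, while every control point is at 0.

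Genes of the germ line and early embryo made up 17 of the 106. Their median of 0.968 FPKM in UHRF1 KO was the highest of the 7 role groups, and their median exon length, 3000 bases, the shortest. By CPM their median was 1.30, below nervous system genes at 1.69, immune at 1.52, receptors, channels and enzymes at 1.45 and secreted at 1.42. DPEP3 at 6.96 FPKM, TSPYL6 at 2.83 and NAA11 at 2.81 led the germ line genes. DPEP3 (ENSG00000141096, chr16:67975663-67980829, minus strand, GRCh38 coordinates as for the genes that follow) encodes a membrane dipeptidase of the testis. It had 303 and 335 counts in the UHRF1 KO libraries and 0 and 0 in the controls. Its mean of 14.04 ± 0.80 CPM in UHRF1 KO (SD, n = 2) was 170.3-fold over the control floor. TSPYL6 (ENSG00000178021, chr2:54253184-54256272, minus strand), an intronless member of the TSPY-like family, had 203 and 191 counts in UHRF1 KO and none in the controls. NAA11 (ENSG00000156269, chr4:79225694-79326050, minus strand), a testis paralog of the catalytic subunit of the main N-terminal acetyltransferase, had 157 and 189 counts in UHRF1 KO and none in the controls. The spread of NAA11 was the smallest of these, at 7.59 ± 0.023 CPM.

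Below them came DCAF4L2, an intronless relative of a ubiquitin ligase adaptor, with 79 and 82 counts in UHRF1 KO, RFPL4B with 46 and 52, and COX7B2, a testis form of a cytochrome c oxidase subunit, with 43 and 42. DPPA2 and DPPA4 form a chromatin-binding pair in pluripotent cells and the early embryo, and DPPA2 had 37 and 55 counts in UHRF1 KO while DPPA4 had 22 and 23. TEX101, a surface protein of testis germ cells, had 35 and 43. RNF17, a tudor-domain protein of germ granules, had 27 and 25 counts, BRDT, the testis member of the bromodomain BET family, 18 and 32, SOHLH2, a germ cell transcription factor, 24 and 19, and MEI1, which is needed for meiotic double-strand breaks in mouse, 16 and 26. L1TD1, M1AP, TAF11L12 and SPDYC had between 16 and 36 counts in each UHRF1 KO library.

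Blood and immune genes were the largest group with 23 of the 106, and their median was 0.504 FPKM in UHRF1 KO. FGR, a SRC-family kinase of myeloid cells, had 138 and 176 counts in the UHRF1 KO libraries. CCR4, the chemokine receptor of some T helper and regulatory T cells, had 140 and 136, and CCL22, which is a ligand of CCR4, had 103 and 144. CD7, a surface protein of T and NK cells, had 125 and 139. These 4 were all above 5 CPM in UHRF1 KO, in a line of epithelial origin, and all had 0 counts in both controls. VNN1, a pantetheinase, had 85 and 96 counts in UHRF1 KO, IL36RN, the antagonist of the IL-36 receptor, 81 and 94, and BATF, an AP-1 family transcription factor of lymphocytes, 89 and 79. Per length BATF was the second highest of all 106, at 3.81 FPKM, after DPEP3 at 6.96 FPKM. LILRB4, an inhibitory receptor of myeloid cells, had 56 and 67.

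The remaining 15 immune genes lay between 0.80 and 2.44 CPM in UHRF1 KO. They were TMEM119, a microglial surface marker, HCLS1 and PIK3R5 of blood cell signalling, the acute-phase protein SAA2, the chemokine XCL1, the red cell glycophorin GYPC, CD79B of the B cell receptor, the complement receptor C3AR1, the cytokine receptor chain IL2RB, the bacterial sensor NOD2, the DNA sensor AIM2, the necroptosis kinase RIPK3, ABI3, the ATP-gated channel P2RX7 and NRROS. CD79A, the partner of CD79B in the B cell receptor, had 7 and 4 counts in UHRF1 KO and 6 and 5 in the controls.

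Markers of other cell types were counted in the same libraries, beside the germline and immune genes. Of 26 listed markers of blood, endothelial, fibroblast, muscle, neural, liver, germ and pluripotent cells, 11 could be tested. Of these, 9 were higher and 1, SOX2, lower, against 32% higher and 30.1% lower of all genes tested. Markers with few control counts, DDX4, PDGFRB and PECAM1 among them, could pass the filter on low counts through the UHRF1 KO libraries alone. They could then hardly be called lower, so the 2 shares are not on equal terms. The summed level of the 26 was 99.8 and 105.0 CPM in UHRF1 KO and 51.4 and 51.9 CPM in the controls. SNAP25 held on average 42.7 CPM of it in UHRF1 KO and 34.2 CPM in the controls. The T cell marker CD3E and the spermatid genes PRM1, PRM2 and TNP1 were at 0 in all 4 libraries. PTPRC, the pan-leukocyte marker CD45, had 10 and 20 counts in UHRF1 KO and 0 and 0 in the controls, LYZ 0 and 0 in UHRF1 KO and 0 and 1 in the controls, and CD68 5 and 2 in UHRF1 KO and 2 and 2 in the controls. PECAM1, an endothelial and leukocyte adhesion protein, rose to 29.9 ± 0.89 CPM in UHRF1 KO, against 0.25 ± 0.20 CPM in the controls (log2 fold change 6.88, edgeR adjusted p = 7.02e-24). CD14 rose with 107 and 138 counts in UHRF1 KO and 31 and 34 in the controls, and the germ cell helicase DDX4 rose with 34 and 27 against 1 and 0. Of the fibroblast and muscle markers PDGFRB had 46 and 45 counts in UHRF1 KO and 3 and 3 in the controls. LUM had 93 and 112 against 9 and 24, and the difference of ACTA2 did not pass the test. DCN, with 11 and 11 against 0 and 0, and the endothelial VWF, with 11 and 11 against 1 and 0, were not tested. The part of other cells in the counts was not tested beyond these levels. All 8 epithelial markers of the line were detected in both groups, of which 2 were higher and 6 lower in UHRF1 KO. Their summed level was 9310.8 and 9330.2 CPM in UHRF1 KO and 17927.8 and 17532.6 CPM in the controls. The enzyme genes ALDH1A1 and AKR1B10 weighed most in the fall of this sum. ALDH1A1 had a mean of 2483.2 CPM in UHRF1 KO and 8214.8 CPM in the controls, and AKR1B10 792.4 and 3204.1 CPM. Log2 fold changes were -2.02 for AKR1B10, -1.73 for ALDH1A1 and 2.16 for EPCAM. The others changed less, with -0.34 for KRT8, -0.43 for KRT18, -0.45 for KRT19, -0.39 for CDH1 and 0.29 for ALDH3A1.

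Nervous system and retina genes numbered 15, with a median of 0.36 FPKM in UHRF1 KO. CLEC2L, a C-type lectin-like protein, had 126 and 142 counts in the UHRF1 KO libraries, and SLC17A9, the vesicular nucleotide transporter, had 124 and 140. CSMD1, a large membrane protein with complement control domains, had 73 and 89, FSTL5 70 and 88, and DLGAP1, a scaffold of the postsynaptic density, 70 and 59. CSMD1 shows how level and length separate, since its 3.55 CPM came to 0.19 FPKM. Both dopamine genes were near the edge of the rule, with TH, the rate-limiting enzyme of dopamine synthesis, at 15 and 16 counts and SLC6A3, the dopamine transporter, at 26 and 19. The others were ANKRD33, CALN1, the proline transporter SLC6A7, the cone transducin subunit GNGT2, the retinal isomerase RPE65, the G protein GNAO1, the calcium channel subunit CACNA2D4 and the neuropeptide receptor NPFFR2, at 0.848 to 1.92 CPM. GNAO1 differed most between libraries within this group, with 20 and 48 counts.

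Muscle genes were 6, with a median of 0.282 FPKM in UHRF1 KO, and 4 of them were myosin heavy chains from the sarcomeric cluster on chromosome 17, which encodes the fast, extraocular and developmental chains of skeletal muscle. In order along the chromosome, MYH13, the extraocular chain, had 109 and 138 counts in the UHRF1 KO libraries, MYH8, the perinatal chain, 44 and 50, MYH1 19 and 41 and MYH2 17 and 24. MYH4, which lies between MYH8 and MYH1, had 13 and 16 and so missed the rule. All 5 had 0 counts in both controls. The last gene of the cluster, MYH3, the embryonic chain, had 67 and 88 counts in UHRF1 KO and 48 and 40 in the controls, and its difference did not pass the test (log2 fold change 0.49, edgeR adjusted p = 0.0719). Of 7 autosomal MYH genes at 0 in both controls 4 met the rule, or 57.1%, against 3.01% of all such coding genes. This was the highest share among 74 symbol prefixes counted. The other 3 were MYH4, MYH6 and MYH7, with 0 and 1 counts for MYH6 and none for MYH7 in UHRF1 KO. The coding sequences of the cluster are very alike, so reads could be split or misplaced among them, and the counts of single genes are uncertain. MYH13 also lies over the antisense genes AC005291.2, with 133 and 157 counts in UHRF1 KO, and AC005291.1, with 76 and 87, both at 0 in the controls, and without a stated use of strand these cannot be told apart from MYH13. The other 2 were DES, the muscle intermediate filament desmin, with 30 and 17, and TXLNB with 18 and 33.

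**Figure D2:**
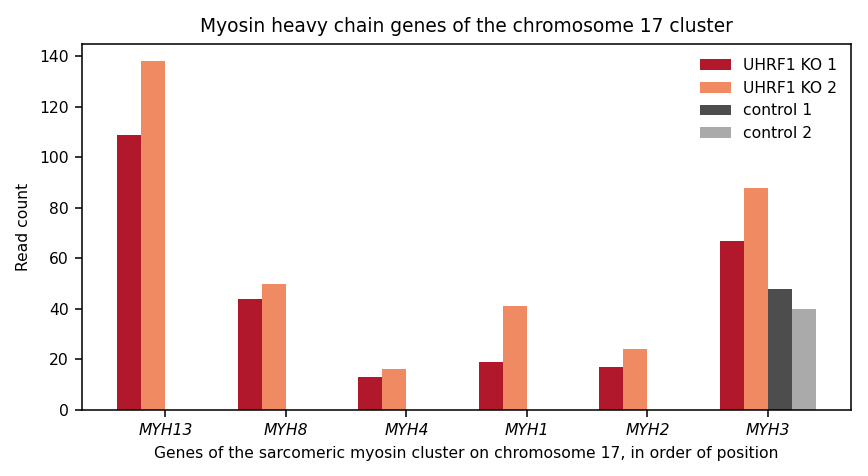
Read counts (y axis, linear) in each library for the 6 myosin heavy chain genes of the chromosome 17 cluster, in order of position (x axis), with UHRF1 KO bars to the left of control bars. MYH13 has 109 and 138 counts in UHRF1 KO, and MYH3 alone has counts in the controls, 48 and 40.

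Secreted, mucosal, barrier and matrix genes numbered 21, with a median of 0.411 FPKM in UHRF1 KO. LCNL1, a lipocalin-like protein, had 81 and 105 counts in the UHRF1 KO libraries and MMP1, interstitial collagenase, 92 and 91. PTGDS, the lipocalin-type prostaglandin D synthase, had 62 and 86, and CTSE, an aspartic protease of the stomach, had 55 and 72. LCNL1 starts 6812 bases from PTGDS and follows it on the same strand. Several of the rest belong to mucosa or glands, with MUC15 at 46 and 63 counts, the trefoil factor TFF2 at 31 and 51, the phosphate transporter SLC34A2 of lung and gut at 33 and 46, the peptide transporter SLC15A1 at 39 and 37 and the serine protease hepsin, HPN, at 29 and 38. Skin barrier genes had lower counts, with desmoglein DSG3 at 33 and 23, PNPLA1 at 25 and 19 and the protease inhibitor SPINK5 at 19 and 20. CPN2, PDIA2, CBLC, ALPG, ADAM33, CHSY3, APCDD1L, AEBP1 and PI15 completed the group, at 0.909 to 2.13 CPM.

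Receptors, channels and enzymes of other tissues numbered 11, with a median of 0.445 FPKM in UHRF1 KO. RAMP1, the accessory chain of the CGRP receptor, had 65 and 77 counts in the UHRF1 KO libraries and 2.53 FPKM. The calcium channel TRPV4 had 53 and 51, the glutathione transferase GSTT2B 49 and 42, the parathyroid hormone family receptor PTH2R 41 and 48, and TSTD1 46 and 37. NR5A1, the steroidogenic factor of adrenal and gonad, had the fewest counts in UHRF1 KO, 16 and 18, and was the single gene of this set from a list of 299 developmental transcription factors, of which 100 were at 0 in both controls. GDPD4, MGAT4C, the lactate receptor HCAR1, BHMT2 and SLC7A4 lay between 0.856 and 1.45 CPM. The 13 genes with little known or general roles had a median of 0.263 FPKM and were led by C11orf96 with 78 and 69 counts and CCDC144NL with 54 and 52, and the rest, UBXN10, ITPRIPL1, CCDC89, FRMD1, TTC22, HIST1H2BG, CCDC152, C2orf91, TMEM52B, RCSD1 and TMEM150B, were at 0.752 to 1.59 CPM.

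Of all silent autosomal coding genes 3.01% met the rule, and the lists of genes with these functions are given beside that share. Among listed autosomal coding genes at 0 in both controls, the rule was met by 5 of 36 muscle genes (13.9%), 7 of 74 germ cell and testis genes (9.46%), 3 of 37 oocyte and early embryo genes (8.11%) and 10 of 146 immune genes (6.85%). Neuronal genes, at 3 of 99 (3.03%), lay at the background and developmental transcription factors, at 1 of 100, below it. Of the 5 muscle genes, MYH13, MYH8, MYH1 and MYH2 came from a single cluster of very alike genes, whose separate counts are uncertain. DPPA2 and DPPA4 were counted on both the germ cell and the oocyte lists. These shares are descriptions, since the lists were chosen with results known, and 79 of the 106 were on no list. Listed genes that had a count in a control lay outside the rule and were counted as well, however few their control counts were. Of 78 such immune genes tested, 59 were higher and 5 lower with a median log2 fold change of 1.76, and of 35 germ cell and testis genes 17 were higher and 5 lower with a median of 0.54. Of 31 muscle genes 13 were higher and 8 lower (median 0.49), and of 91 neuronal genes 36 were higher and 27 lower (median 0.30). The 8 oocyte and embryo genes split evenly, with 2 higher and 2 lower, and the 121 developmental transcription factors had 36 higher and 31 lower. Over all 16746 genes tested that had a count in a control, 5164 were higher and 5118 lower with a median of 0.01. A gene with few control counts could pass the filter on low counts through the UHRF1 KO libraries alone. It could then hardly be called lower. The lists were not counted again for genes more active in the controls, so how far this raised their numbers of higher genes was not tested. Of 361 olfactory receptors at 0 in both controls, a family read in the nose and another of the 74 symbol prefixes counted, 0 met the rule.

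The libraries of the UHRF1 KO group gave like values for most of these genes. The larger of the 2 CPM values was a median of 1.21 times the smaller, and 91 of 106 genes were under 1.5 times. Of the 106, DES, HIST1H2BG and GNAO1 reached 2 times, with 27 and 16 counts for HIST1H2BG, and 45 of the 106 were higher in UHRF1 KO 2. The rank correlation of the 2 libraries over the 106 genes was 0.82, a description over genes that share both libraries and the same minimum count. Counting error is large at these depths, with 33 genes under 20 counts in the lower library and 27 at 50 or more in each.

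**Figure D3:**
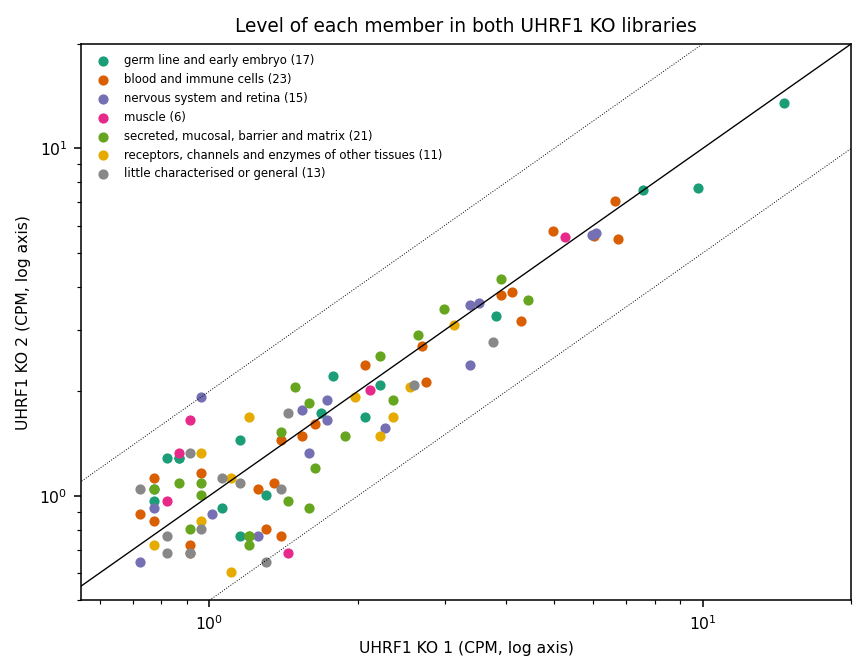
CPM of each of the 106 genes in UHRF1 KO 1 (x axis) and UHRF1 KO 2 (y axis), both on log axes, coloured by role, with a solid line at equal levels and dotted lines at 2 times in either direction. Most points lie close to the solid line, and DES, HIST1H2BG and GNAO1 lie at or past a dotted one.

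Close relatives of these genes with counts in the controls were looked at as pairs picked for likeness of sequence or family. NAA10, the ubiquitous paralog of NAA11, had 425 and 463 counts in UHRF1 KO and 354 and 312 in the controls, a difference that did not pass the test (edgeR adjusted p = 0.430). TSPYL1 likewise had 1018 and 1198 in UHRF1 KO and 906 and 981 in the controls (adjusted p = 0.185, edgeR), and the BRDT relative BRD2 had a log2 fold change of 0.06 that did not pass. COX7B, the ubiquitous partner of COX7B2, fell, with 1835 and 2189 counts in UHRF1 KO and 2466 and 2347 in the controls (log2 fold change -0.58). DCAF4, the relative of DCAF4L2, rose a little, with 442 and 538 counts in UHRF1 KO and 329 and 335 in the controls (log2 fold change 0.24, edgeR adjusted p = 0.0229). DPEP1, a relative of DPEP3, rose, with 48 and 63 counts in UHRF1 KO and 28 and 16 in the controls (log2 fold change 1.00, edgeR adjusted p = 0.00571). That the relative had counts in the controls and the testis form had none was fixed by the choice of pairs and the rule. DPEP2, another relative of DPEP3, had 1 and 3 counts in UHRF1 KO and 0 and 0 in the controls.

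Relatives of the secreted and immune proteins were of both kinds, some called higher and others at or near 0 in every library. SAA1, beside SAA2, had 167 and 199 counts in UHRF1 KO and 3 and 3 in the controls (log2 fold change 5.55, edgeR adjusted p = 3.06e-16). IL1RN, the relative of IL36RN, had 116 and 106 in UHRF1 KO and 0 and 1 in the controls, and IL36B had 22 and 27 against 1 and 1. TFF1 rose beside TFF2, with 86 and 98 counts in UHRF1 KO and 7 and 4 in the controls, and CCL17, the other ligand of CCR4, had 32 and 44 against 6 and 6. MMP3, next to MMP1, had 9 and 6 in UHRF1 KO and 3 and 2 in the controls, too few to test. MMP10 had 3 and 0 in UHRF1 KO and 0 and 2 in the controls, IL36G 1 and 0 against 1 and 0, and TFF3 2 and 9 against 0 and 0, also too few to test. XCL1, SAA2, GSTT2B, TAF11L12, HIST1H2BG and LILRB4 have near-identical relatives, so their counts are uncertain where reads match more than 1 gene. XCL2, the copy of XCL1, had 4 and 8 counts in UHRF1 KO and none in the controls.

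The 106 genes lay on 20 of the 22 autosomes, with none on chromosome 10, which has 110 coding genes at 0 in both controls, or on chromosome 15, which has 74. Beside the 3.01% over all autosomes, numbers per chromosome are small. The highest shares were on chromosome 17, with 10 of 165 silent genes or 6.06%, 4 of them from the myosin cluster, and chromosome 2, with 10 of 175 or 5.71%. Chromosome 1 had the most genes, 11 of 445. In 4 places a pair of these genes were next to each other in coding gene order. These were MYH13 with MYH8, MYH1 with MYH2, DPPA2 with DPPA4, whose starts lie 21055 bases apart on the same strand, and ABI3 with GNGT2, which start 347 bases apart on opposite strands and overlap. For ABI3, with 19 and 18 counts in UHRF1 KO, and GNGT2, with 32 and 44, reads cannot be assigned with certainty if strand was not used.

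The coding genes beside the 106 were not used to choose them, and those that missed the rule could be tested. The nearest coding gene on each side, with a start within 100 kb, gave 132 neighbours, of which 89 were tested. Of these 28, or 31.5%, were called at least 2-fold higher in UHRF1 KO, and 0 at least 2-fold lower, against 12.2% higher and 2.18% lower among 13052 other autosomal coding genes tested (edgeR quasi-likelihood test with Benjamini-Hochberg adjustment over all genes). Some of the 28, such as MYH4, ALPP and IL36B, had 0 or 1 count in each control and passed the filter on low counts through UHRF1 KO alone. MYH4, SAA1, ALPP and TAF11L11 are close relatives of the gene they lie beside, so reads could be shared with it. With no size limit 49 of the 89 neighbours were higher and 12 lower, with a median log2 fold change of 0.44. Of the 13052 other genes 4057 were higher and 4582 lower, with a median of -0.03. By distance, of 12 tested neighbours that start within 10 kb 4 were higher and 4 lower, with a median log2 fold change of 0.0042, while the 77 farther away had 45 higher and 8 lower and a median of 0.51. The background depends on how active a gene was, so the same was counted for genes with 15 or more counts in each control. There, 11 of 65 neighbours, or 16.9%, were at least 2-fold higher, against 765 of 11742 genes, or 6.52%. Their median log2 fold change was 0.18, against -0.08 for those 11742 genes. Of the 132 neighbours, 35 were at 0 in both controls, or 26.5%, against 19.5% of other autosomal coding genes, and 18 were at 0 in all 4 libraries, or 13.6%, against 12.3%. Without the neighbours that overlap a gene of the rule, 27 were at least 2-fold higher.

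**Figure D4:**
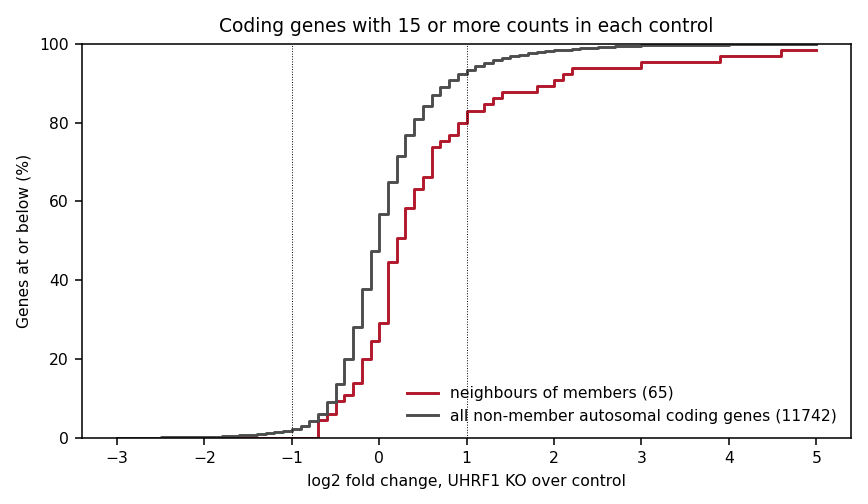
Cumulative share of genes (y axis, percent) at or below each log2 fold change of UHRF1 KO over control (x axis), for 65 neighbours of the 106 genes and for 11742 other autosomal coding genes, all with 15 or more counts in each control, with dotted lines at 2-fold. The curve of the neighbours lies to the right over most of its length, with medians of 0.18 and -0.08.

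LYPD3, a GPI-anchored surface protein of epithelia, had the largest rise of the neighbours. It had 5030 and 6044 counts in UHRF1 KO and 16 and 15 in the controls (log2 fold change 8.14, edgeR adjusted p = 2.56e-35). Its start lies 64164 bases from that of TEX101. CX3CL1, a chemokine whose start is 13686 bases from that of CCL22, had 606 and 747 counts in UHRF1 KO and 26 and 19 in the controls (log2 fold change 4.58). CCL17 lies in the same chemokine cluster. LRRC15, upstream of CPN2, had 93 and 72 in UHRF1 KO and 1 and 5 in the controls, and ALPP, beside its close relative ALPG, had 13 and 17 against 1 and 0. MYH4 and SAA1, described with their relatives above, were the other neighbours among the 6 largest rises. CD7 lies downstream of SECTM1 on the same strand, which had 149 and 156 counts in UHRF1 KO and 30 and 26 in the controls.

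Overlap with other transcribed genes was counted for each gene. Of the 106, 37 overlapped another gene with counts, or 34.9%, against 53.7% of all autosomal coding genes, and 16 overlapped a gene with counts in a control. For genes at 0 in all 4 libraries the share was 30.1%. TSPYL6 lies inside ACYP2 on the opposite strand, which had 168 and 189 counts in UHRF1 KO and 116 and 128 in the controls, a difference that did not pass the test (edgeR adjusted p = 0.179). DLGAP1 overlaps its antisense genes, of which DLGAP1-AS2 had 310 and 340 counts in UHRF1 KO and 111 and 108 in the controls. TMEM52B, at 19 and 17 counts, lies opposite OLR1, with 137 and 143 in UHRF1 KO and 2 and 10 in the controls, and CCDC144NL lies opposite CCDC144NL-AS1, with 174 and 202 against 0 and 4. PI15, at 16 and 26, lies opposite AC011632.1, with 45 and 56 in UHRF1 KO and none in the controls. Reads of such partners cannot be told apart from those of the gene without strand, and 69 of the 106 are left when all that overlap a gene with counts are set aside.

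CpG content was measured in the first 300 bases of the longest coding transcript, which was available for all 106. The ratio of observed to expected CpG had a median of 0.475, with quartiles at 0.330 and 0.685, and 35 of the 106, or 33.0%, reached 0.6, a common cut for CpG islands. Genes at 0 in both controls with some counts in UHRF1 KO, but too few for the rule, had a median of 0.405, and those at 0 in all 4 libraries 0.319. All other genes with counts in a control, short of 15 in each, had a median of 0.485. Genes with 15 or more counts in each control had a median of 0.786, with 75.5% of 11241 at 0.6 or more. By this measure the 106 lay nearer to the silent and barely read genes than to the active ones. The role groups differed, with medians of 0.63 for nervous system genes and 0.58 for germ line genes, and 0.37 for immune genes, of which 3 of 23 reached 0.6. C11orf96 at 1.10, DLGAP1 at 1.02, CALN1 at 1.01 and DES at 0.99 were the richest by this measure, and MMP1 at 0.12 and LCNL1 at 0.15 among the poorest. The CPM of these genes in UHRF1 KO lay between 1.07 and 4.06. The transcript start can differ from the promoter. In their RefSeq promoter entries DLGAP1 had a ratio of 0.39 and CALN1 0.31, while SLC34A2 had 1.02 there and 0.39 at the transcript start. Across the 106 the rank correlation of the ratio with FPKM in UHRF1 KO was -0.04. DNA methylation was not analysed here.

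**Figure D5:**
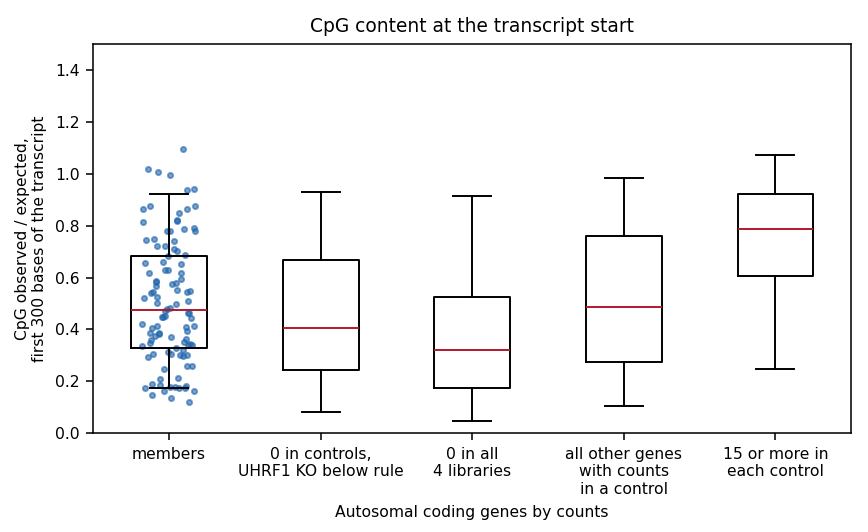
Ratio of observed to expected CpG in the first 300 bases of the longest coding transcript (y axis) for autosomal coding genes grouped by counts (x axis), with boxes at the quartiles, a line at the median, whiskers at the 5th and 95th percentiles and a point for each of the 106 genes. The 106 have a median of 0.475, between 0.319 for genes at 0 in all 4 libraries and 0.786 for genes with 15 or more counts in each control.

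Gene structure was compared in the same way, as a description. Summed exon length had a median of 3410.5 bases among the 106, against 1743 for genes at 0 in all 4 libraries and 5257 for genes with 15 or more counts in each control. Genes at 0 in both controls with UHRF1 KO counts too few for the rule had a median of 2785 bases. A rule on raw counts favours long transcripts at a given molar level, so length and selection by the rule cannot be told apart here. Intronless genes were 7 of 106, or 6.60%, against 16.2% of genes at 0 in all 4 libraries and 4.43% of all. They were TSPYL6, DCAF4L2, C11orf96, CCDC89, HCAR1, TAF11L12 and HIST1H2BG.

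The enzymes that write, copy and remove DNA methylation were listed with their partners. Of 34 tested genes 5 were higher and 18 lower in UHRF1 KO, UHRF1 itself among the lower, with a median log2 fold change of -0.17. Over all genes tested, 32% were higher and 30.1% lower, with a median of 0.02. With total counts alone 7 of the 34 were higher and 12 lower with a median of -0.06, against 0.13 for all genes. DNMT3B, a de novo methyltransferase, rose to 24.7 ± 1.04 CPM in UHRF1 KO, against 9.73 ± 0.27 CPM in the controls (log2 fold change 1.34, edgeR adjusted p = 2.04e-13). DNMT1 was 145.9 ± 0.50 CPM in UHRF1 KO and 160.8 ± 0.94 CPM in the controls, a log2 difference of -0.14 (edgeR adjusted p = 0.0042) that did not pass with total counts alone (adjusted p = 0.526). DNMT3A and UHRF2, with log2 fold changes of -0.09 and -0.04, did not pass the test, and both values turned positive with total counts. Of the TET dioxygenases, which oxidise methylated cytosine, TET3 fell by 0.73 and TET1 by 0.60 on the log2 scale, and TET2 at -0.18 did not pass. TET1 did not pass with total counts alone (edgeR adjusted p = 0.0946). DNMT3L, the germ cell cofactor of de novo methylation, had 0 and 1 counts in UHRF1 KO and 1 and 0 in the controls.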

How the data were processed

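RNA-seq was done on 4 A549 libraries, 2 UHRF1 KO and 2 control, made with a SMARTER mRNA-Seq kit per the labels' protocols. The authors deposited raw, unscaled read counts for each gene. FastQC 0.10.1 and GRCh38 appear in the submitters' processing notes. Not given in the sources used here are the aligner, the counter, the annotation, whether strand was used and how multi-mapped reads were treated. GENCODE release 29 gave gene types, coordinates and exon lengths for all 58735 identifiers. The short name with number 1 stands on both controls, so control columns were numbered by the sample titles.

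Counts were fitted in R 4.3.3 with edgeR 4.0.16 (filterByExpr, TMM, robust quasi-likelihood test, two-sided, Benjamini-Hochberg over 17030 genes, threshold 0.05). The coefficient of variation was 3.16%. CPM and FPKM were computed from TMM-scaled counts. Chi-square per degree of freedom between libraries of a group was 1.85 for UHRF1 KO and 2.65 for control, above counting noise, and libraries were kept apart. The fit was tested on simulated data.

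RefSeq promoters (GRCh38.p14) matched 68 of the 106 genes, or 64.2%, so a promoter check over the set is void, and the transcript start was used instead, a choice made after seeing the data. No genome sequence or protein table was used here.

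The genes, their roles and the lists were chosen with earlier results of these data known. Named are the 24 highest by CPM, the highest of each list, pairs next to each other, the genes at the edge of the rule, those that differ most between UHRF1 KO libraries, the 6 largest neighbour rises and methylation enzymes; other genes were named after their values were seen. Alternatives were DESeq2 1.42.0, its size factors, limma-voom 3.58.1, other filters, a replicate block, other distances and counts, and leaving out each library.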

Additional observations from a re-analysis of the deposited data

How the results depend on the processing

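With the minimum in each UHRF1 KO library set at 30 counts the rule found 50 genes, with 10 counts 144, and with the main minimum 162 with up to 1 count allowed in each control, and 69 without genes that overlap another gene with counts, an alternative added after seeing the data as were total counts alone. Leaving out 1 library gave 119 to 159 genes, the most without control replicate 2. Of the DNA methylation genes, 3 were higher by DESeq2 and 3 with no filter, against 5, total counts alone gave 7 higher and 12 lower, and leaving out 1 library gave 3 to 4, the fewest without UHRF1 KO replicate 1. Neighbours at least 2-fold higher numbered 22 to 35 over all alternatives, with 0 at least 2-fold lower in the 11 other fits, where it was counted at 100 kb, and markers of other cell types 7 to 12 higher and 1 lower. Genes called ran from 3838 to 6564 higher and from 3761 to 5382 lower. Replicate numbers are shared between the groups in the labels, but same-numbered libraries did not deviate together (r = -0.01 across genes). Since the numbering of the controls is uncertain, this cannot show whether such libraries shared a culture or batch, and the block was kept as an alternative. With the replicate number as a block, 5280 genes were higher and 4986 lower, 28 neighbours were at least 2-fold higher, 4 DNA methylation genes were higher and 18 lower, and 9 markers were higher and 1 lower. A wider promoter window was not run, for want of a genome sequence, and promoter alternatives were void. Depth limits the genes near the edge of the rule, since 15 counts are within counting error of a few reads fewer. With 2 libraries a group, the spread rests on sharing across genes.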
